A study of Mus musculus with 6 samples.

Results

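Adipose progenitors are the stromal cells of fat from which new adipocytes form, and the marker genes described here are those commonly used to find them and their fibroblast neighbours. The list held 10 genes by name, Pdgfra, Dpp4, Pi16, Cd34, Ly6a, Ly6c1, Clec11a, Sfrp2, Dlk1 and F3. A gene counted as measured when the array annotation gave a probe set exactly 1 gene symbol, and where several did, the one of highest average signal stood for it. By this rule 8 of the 10 genes were measured, each by 1 probe set, among 30702 genes and 65956 probe sets in all. Pdgfra was left out because its probe set is also assigned to the microRNA gene Mir7025, and Ly6a because no probe set carries its symbol. All 8 measured members were tested, with no filter on low values.

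Whole-transcript arrays were hybridised with total RNA of subcutaneous inguinal white fat from male C57BL/6 mice aged 2 months. The 3 mice of the KO group were TFG f/f and carried Adipoq-ERT2Cre, a Cre recombinase that tamoxifen activates and that the adiponectin promoter drives in adipocytes. The 3 mice of the WT group were TFG f/f without Cre, so both groups carried the floxed alleles and both received tamoxifen, over 5 days, with fat taken 2 weeks later. The labels call each array a biological replicate. The adiponectin promoter is active in mature fat cells and not in the progenitors that these genes mark, so the design targets a different cell type from the one described here.

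Stromal progenitors of mouse subcutaneous fat are usually divided by surface and secreted proteins. Cells with DPP4 and PI16 lie in the interstitium of the depot and are regarded as early progenitors, cells further along carry DLK1 or ICAM1, and cells with F3 and CLEC11A have been described as a stromal population that restrains fat formation. CD34 and the LY6 proteins are shared with blood vessels or blood cells, so their genes are not read by stroma alone. In whole tissue, fewer cells of a type and less RNA per cell cannot be told apart.

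Values are log2 signals as deposited, means are over n = 3 arrays per group with their SD, and differences are KO minus WT from limma with their SE. A gene passed when its Benjamini-Hochberg adjusted p over all 65956 probe sets was under 0.05. Array medians were lower on the KO arrays, at 6.47 to 6.76, than on the WT arrays, at 6.96 to 7.02, and the median difference over all probe sets was -0.37. In contrast, 12 measured housekeeping genes averaged 10.15 ± 0.35 on KO arrays and 9.09 ± 0.07 on WT arrays. The differences of the single housekeeping genes ranged from 0.11 to 2.66, so these genes did not share 1 common shift. A direction can therefore depend on the scale, and each member is also given after quantile normalization, after centring arrays on their medians, and after centring them on the housekeeping genes. KO replicate 2 correlated at 0.960 and 0.965 with the other KO arrays, while those correlated at 0.986. Its highest correlation with a WT array was 0.900. KO replicate 1 reached 0.969 with a WT array, above its 0.960 with KO replicate 2. Tfg itself read 7.99, 8.21 and 8.03 on KO arrays, against 7.97, 7.94 and 7.91 on WT arrays, and did not pass (0.14 ± 0.11, limma adjusted p = 0.345). The exons read by that probe set are not known here, so its signal is at most a partial check of the labels. The arrays are called KO-labelled and WT-labelled below.

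As deposited, the marker genes did not all differ in 1 direction. Ly6c1 rose 3.17-fold, Clec11a and Sfrp2 fell by 0.68 and 0.48 on the log2 scale, and Dpp4, Pi16, Cd34, Dlk1 and F3 did not pass. Thus 1 of 8 members was called higher, where 5.32% of all probe sets were, and 2 of 8 were called lower, where 15.6% of all probe sets were. The median difference of the 8 members was -0.26, beside -0.37 for all probe sets and -0.18 for 19525 protein-coding probe sets. In 5 members (Dpp4, Pi16, Sfrp2, Dlk1 and Clec11a) all 3 KO-labelled arrays lay below all 3 WT-labelled arrays, an arrangement shown by 44.9% of all probe sets. Each of these 5 was dim, with a mean signal over all arrays under 6.83, the median of all probe sets. The other members, Ly6c1, F3 and Cd34, lay above that level. The part of dim signal in the lower readings was not tested. In Ly6c1 and F3 the KO-labelled arrays lay above all WT-labelled arrays, as in 11.1% of all probe sets, and in Cd34 the groups overlapped.

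**Figure D1:**
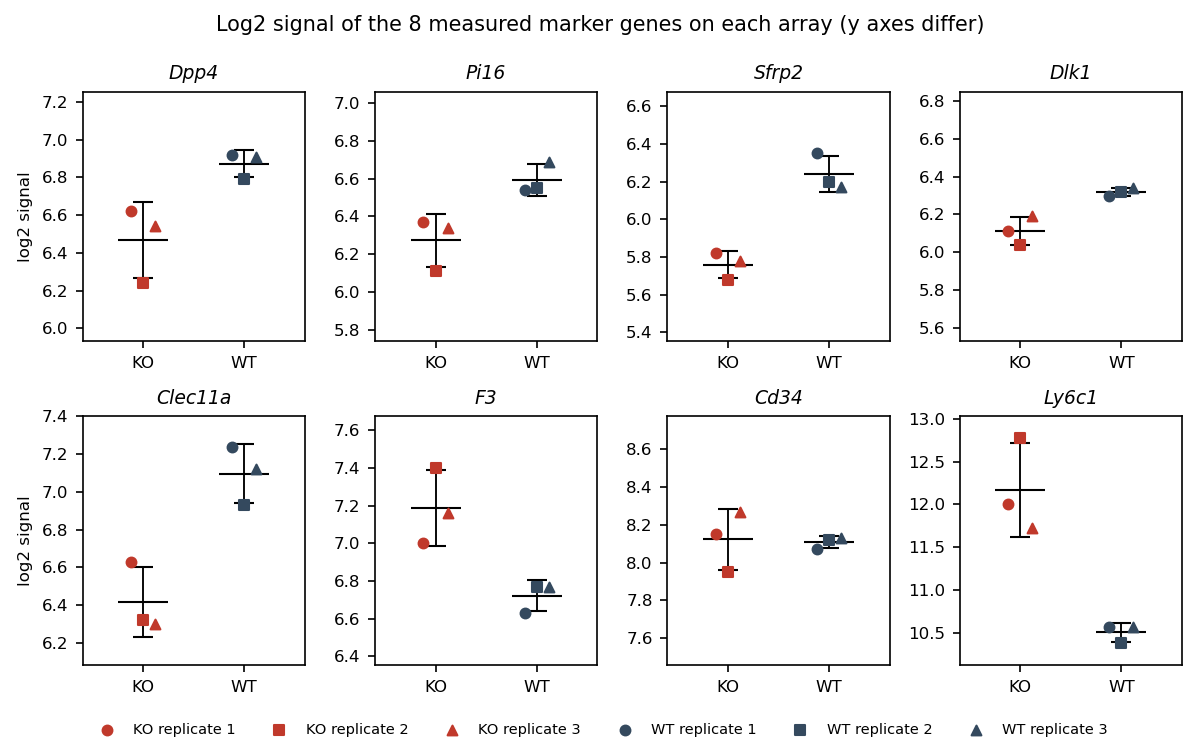
Log2 signal (y axis, a different range in each panel) of the 8 measured marker genes on the 3 KO-labelled and 3 WT-labelled arrays (x axis). Points are arrays, with a marker shape for each replicate number, and bars are the mean ± SD. KO-labelled arrays lie below WT-labelled ones for Dpp4, Pi16, Sfrp2, Dlk1 and Clec11a, above them for F3 and Ly6c1, and among them for Cd34.

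The promoters of the 3 members that passed the test are shown because these genes carry the differences that follow. Each is the RefSeq window from 250 bases before to 50 bases after the annotated start on GRCm38.p6, written 5′ to 3′ on the strand of the gene. Capitals mark matches, on either strand, to 4 motifs. The TATA box was searched as TATAAA and the box named for its letters as CCAAT. The Sp1-type box was searched as GGGCGG and the AP-1 site as TGANTCA.
Ly6c1, chr15:75048788-75049087, minus strand: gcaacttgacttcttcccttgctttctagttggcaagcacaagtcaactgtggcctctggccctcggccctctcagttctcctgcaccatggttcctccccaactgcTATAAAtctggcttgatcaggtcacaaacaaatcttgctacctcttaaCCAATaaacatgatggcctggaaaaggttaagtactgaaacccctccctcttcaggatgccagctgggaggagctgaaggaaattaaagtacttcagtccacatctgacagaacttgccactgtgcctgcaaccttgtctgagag
Clec11a, chr7:44306910-44307209, minus strand: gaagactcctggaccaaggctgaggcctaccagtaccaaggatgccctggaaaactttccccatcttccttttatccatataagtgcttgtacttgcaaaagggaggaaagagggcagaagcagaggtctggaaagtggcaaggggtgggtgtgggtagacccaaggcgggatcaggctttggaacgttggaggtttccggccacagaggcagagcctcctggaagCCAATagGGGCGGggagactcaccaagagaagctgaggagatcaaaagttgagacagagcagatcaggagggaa
Sfrp2, chr3:83766071-83766370, plus strand: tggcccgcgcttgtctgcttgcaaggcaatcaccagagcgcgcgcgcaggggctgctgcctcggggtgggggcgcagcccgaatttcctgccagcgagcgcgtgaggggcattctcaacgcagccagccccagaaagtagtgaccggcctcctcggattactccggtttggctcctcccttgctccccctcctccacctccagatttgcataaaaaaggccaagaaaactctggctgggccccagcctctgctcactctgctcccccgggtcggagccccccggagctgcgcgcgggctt
The Ly6c1 window held 1 TATAAA and 1 CCAAT, and the second annotated start of Ly6c1 gave a window with no match to any of the 4 motifs. The Clec11a window held 1 CCAAT and 1 GGGCGG, which do not overlap. The Sfrp2 window held no match, which says only that these letters are not in it, and its GC content of 66.0% was above the median of 52.7% over all promoters. Of 32851 RefSeq promoters of the same length, 13.6% held TATAAA, 37.4% CCAAT, 35.7% GGGCGG and 7.81% TGANTCA. The promoter of F3, not printed, held 3 GGGCGG and 2 TGANTCA matches, and 1 TATAAA match at base 294 of the window, after the annotated start. F3 was the sole member of the 8 with a TGANTCA match. Ly6c1 and Clec11a both held CCAAT, and no motif of the 4 was common to all 3 genes that passed.

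Among the markers of interstitial progenitors, Dpp4 and Pi16 read slightly lower on the KO-labelled arrays without passing. Dpp4 encodes dipeptidyl peptidase 4, a serine protease of the cell surface that trims peptide hormones and chemokines. Its signal was 6.62, 6.24 and 6.54 on KO-labelled arrays, against 6.92, 6.79 and 6.91 on WT-labelled arrays. The groups did not overlap, yet the difference of -0.41 ± 0.14 missed the threshold (limma adjusted p = 0.0724) and lay at percentile 46.0 of the differences of all probe sets. Measured from each array's median, Dpp4 stood at -0.14, -0.23 and -0.19 on KO-labelled arrays, against -0.05, -0.17 and -0.11 on WT-labelled arrays. On that scale the groups overlapped and the difference was -0.08 ± 0.12 (limma adjusted p = 0.698). Dpp4 passed as lower after centring on the housekeeping genes (-1.47 ± 0.34, adjusted p = 0.00204) and with array weights (-0.33 ± 0.10, adjusted p = 0.0466).

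Pi16 encodes peptidase inhibitor 16, a secreted or membrane-bound protein of the CAP superfamily that marks fibroblasts of several organs. It read 6.37, 6.11 and 6.34 on KO-labelled arrays, against 6.54, 6.55 and 6.69 on WT-labelled arrays. KO replicate 2 was the lowest array for both Pi16 and Dpp4. The difference in Pi16 was -0.32 ± 0.12 as deposited (limma adjusted p = 0.0929), but 0.04 after quantile normalization and 0.01 after centring on array medians, where its sign turned. It was -1.38 ± 0.34 after centring on the housekeeping genes, where it passed as lower (adjusted p = 0.00235). Relative to the array median Pi16 was at -0.39, -0.36 and -0.39 on KO-labelled arrays, against -0.43, -0.41 and -0.33 on WT-labelled arrays.

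Of 8 other measured genes linked to interstitial progenitors, 0 passed limma's test in either direction, and 5.32% and 15.6% of all probe sets did, higher and lower. At an unadjusted p under 0.05, 3 of the 8 did, where 47.9% of all probe sets did. These were Bmp7, which encodes a bone morphogenetic protein (-0.33 ± 0.11, limma adjusted p = 0.0708), Anxa3, which encodes an annexin (0.50 ± 0.17, adjusted p = 0.0714), and Cd55, which encodes a complement regulator (0.69 ± 0.24, adjusted p = 0.0751). The list had a median difference of 0.01. Bmp7 turned to 0.02 under quantile normalization, and Anxa3 and Cd55 turned to -0.56 and -0.37 when arrays were centred on the housekeeping genes. After centring on array medians 1 of the 8, Anxa3, passed (0.83, adjusted p = 0.0451).

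Dlk1 and Sfrp2, which encode secreted or shed proteins, read lower on KO-labelled arrays, and Sfrp2 alone of them passed as deposited. Dlk1 encodes preadipocyte factor 1, a transmembrane protein with EGF-like repeats whose shed form inhibits fat formation and which is lost as preadipocytes mature. It read 6.11, 6.04 and 6.19 on KO-labelled arrays, against 6.30, 6.32 and 6.34 on WT-labelled arrays. The WT-labelled arrays spanned 6.30 to 6.34 and the KO-labelled ones lay just below. The difference of -0.21 ± 0.10 did not pass (95% interval -0.46 to 0.05, limma adjusted p = 0.155), and it turned to 0.16 after quantile normalization and 0.12 after centring on array medians. It was -1.27 ± 0.32 after centring on the housekeeping genes, where it passed as lower (adjusted p = 0.00286).

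Sfrp2 encodes a secreted frizzled-related protein that binds Wnt ligands and is made by fibroblasts. It read 5.82, 5.68 and 5.78 on KO-labelled arrays, against 6.35, 6.20 and 6.17 on WT-labelled arrays. It averaged 5.76 ± 0.07 on KO-labelled arrays and 6.24 ± 0.10 on WT-labelled arrays. Its mean over all arrays was under 6.21, a level that 49476 of the 65956 probe sets reached. Whether so dim a signal lay above background was not examined. The fall of 0.48 ± 0.11 passed limma's test (adjusted p = 0.0406). It was -0.12 ± 0.12 after quantile normalization (adjusted p = 0.525) and -0.15 ± 0.13 after centring on array medians (adjusted p = 0.469), and neither passed. It was -1.54 ± 0.33 after centring on the housekeeping genes (adjusted p = 0.00146), which passed, as did 89.5% of all probe sets in that direction. Its difference lay at percentile 39.1 of all probe sets, close to their median. Leaving out any of the 6 arrays also ended the call, with adjusted p between 0.0519 and 0.117.

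Of Clec11a and F3, paired in descriptions of the adipogenesis-restraining stromal population, Clec11a passed as lower and F3 did not pass. Clec11a encodes a secreted C-type lectin domain protein, also known as osteolectin, that promotes bone formation. It read 6.63, 6.32 and 6.30 on KO-labelled arrays, against 7.24, 6.93 and 7.12 on WT-labelled arrays. The highest KO-labelled array lay below the lowest WT-labelled array. The fall of 0.68 ± 0.15 passed limma's test (95% interval -1.04 to -0.32, adjusted p = 0.0386) and was at percentile 23.3 of all probe sets. The difference was -0.35 ± 0.14 after quantile normalization (adjusted p = 0.143) and -0.35 ± 0.15 after centring on array medians (adjusted p = 0.158), and neither passed. It was -1.74 ± 0.34 after centring on the housekeeping genes, which passed (adjusted p = 0.00121). Without KO replicate 1 it passed (adjusted p = 0.0376), and without any of the other 5 arrays it did not (highest adjusted p = 0.118).

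F3 encodes tissue factor, or CD142, the cell surface receptor of factor VII that starts blood clotting. It read 7.0, 7.40 and 7.16 on KO-labelled arrays, against 6.63, 6.77 and 6.77 on WT-labelled arrays. The 3 KO-labelled arrays lay above all WT-labelled ones. The difference was 0.46 ± 0.14 and missed the threshold (limma adjusted p = 0.0576). It passed after quantile normalization (0.76 ± 0.17, adjusted p = 0.0468) and after centring on array medians (0.79 ± 0.20, adjusted p = 0.0438), but turned to -0.60 ± 0.30 when arrays were centred on the housekeeping genes, without passing (adjusted p = 0.0734). Its difference lay at percentile 91.1 of all probe sets. After quantile normalization 6.11% and 3.35% of all probe sets passed higher and lower, and after centring on array medians 7.80% and 4.94% did. Under both of these scalings the members called were Ly6c1 and F3, higher, and none was called lower. After centring on the housekeeping genes 0 of 8 members were called higher and 6 of 8 lower, beside 1.37% and 89.5% of all probe sets, and the members' median was -1.32.

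Of 5 other measured genes of CD142+ stromal cells 1 passed and was higher. Fmo2, a flavin monooxygenase gene, rose by 1.30 ± 0.32 (limma adjusted p = 0.0425). Abcg1, a cholesterol exporter gene, differed by 0.24 ± 0.12 (adjusted p = 0.146), and Gdf10, a growth factor gene, by 0.21 ± 0.16 (adjusted p = 0.312). Both turned negative when arrays were centred on the housekeeping genes, at -0.82 and -0.85. Among 5 measured clotting partners of tissue factor 0 rose and 1 fell, and F7, the gene of its ligand factor VII, was the faller at -0.48 ± 0.12 (adjusted p = 0.0422). F7 differed by -0.15 without passing after quantile normalization (adjusted p = 0.363). F2 and F10, the genes of prothrombin and factor X, stood at -0.47 ± 0.18 and -0.30 ± 0.12 without passing (adjusted p = 0.0909 and 0.0944). F10 turned to 0.02 and 0.03 after quantile normalization and centring on array medians. For CLEC11A the known receptor is integrin alpha 11 beta 1. Itga11 stood at -0.23 ± 0.10 (adjusted p = 0.121) and its relative Itga10 at -0.29 ± 0.13 (adjusted p = 0.132), both without passing and both slightly positive after quantile normalization and median centring. Itgb1, the gene of the shared beta 1 chain used by many cell types, rose by 1.82 ± 0.29 (adjusted p = 0.0354).

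**Figure D2:**
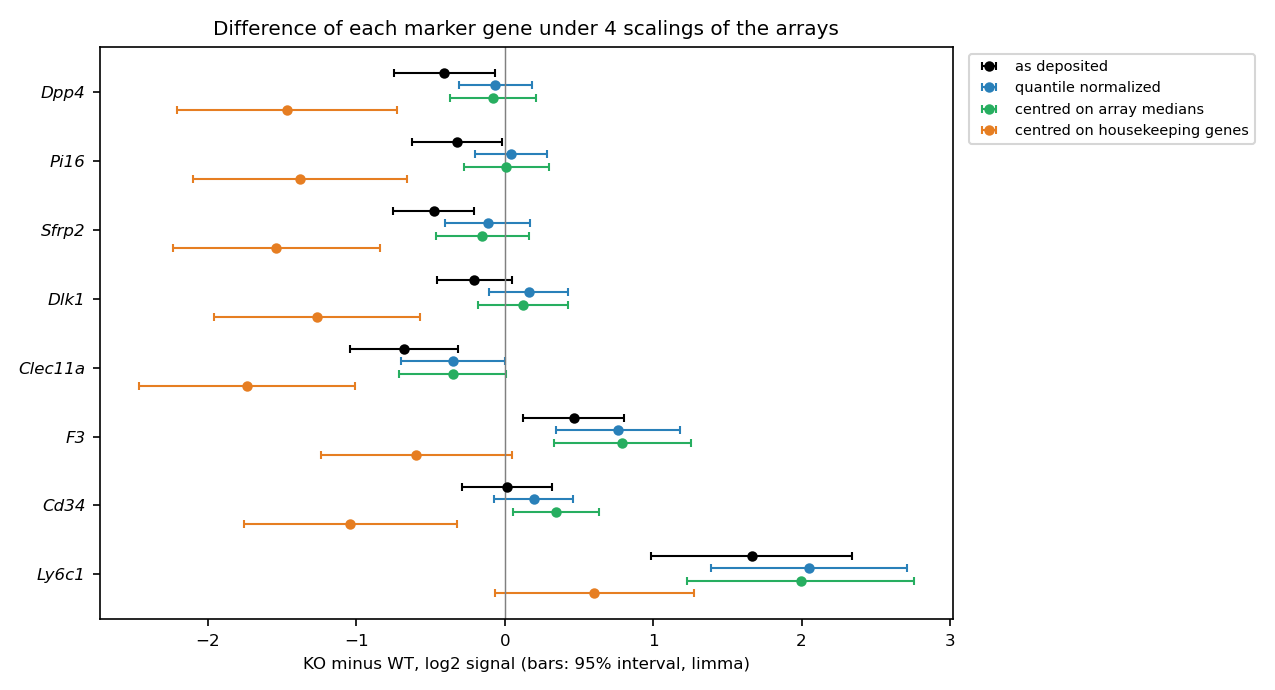
Difference between KO-labelled and WT-labelled arrays (x axis, log2 signal) for each measured marker gene (y axis), as deposited and after 3 other scalings of the arrays. Points are limma estimates and bars their 95% intervals. Ly6c1 is positive under all 4 scalings, between 0.60 and 2.05, Clec11a, Sfrp2 and Dpp4 are negative under all 4, and Pi16, Dlk1, Cd34 and F3 change sign.

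Cd34 read nearly level between the groups as deposited and did not pass. It encodes a sialomucin of the surface of blood stem cells, vessel lining and adipose stromal cells. It read 8.15, 7.95 and 8.27 on KO-labelled arrays, against 8.07, 8.12 and 8.13 on WT-labelled arrays. KO replicate 2 was below, and the other KO-labelled arrays above, all WT-labelled arrays. The difference was 0.02 ± 0.12 with a 95% interval of -0.29 to 0.32 (limma adjusted p = 0.922), so differences within that interval were not resolved. Measured from each array's median, Cd34 stood at 1.39, 1.48 and 1.54 on KO-labelled arrays, against 1.1, 1.16 and 1.11 on WT-labelled arrays, where the groups no longer overlapped. The difference was 0.19 ± 0.11 after quantile normalization (adjusted p = 0.257) and 0.35 ± 0.12 after centring on array medians (adjusted p = 0.102). It turned to -1.04 ± 0.33 after centring on the housekeeping genes, where it passed as lower (adjusted p = 0.00950). Of its relatives, Podxl, the podocalyxin gene, stood at -0.01 ± 0.11 and Podxl2, the endoglycan gene, at -0.35 ± 0.12, and neither passed (adjusted p = 0.951 and 0.0755). Podxl was positive after quantile normalization and median centring, at 0.24 and 0.32.

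Ly6c1 was the 1 member that rose, and its difference exceeded the 1.06 by which the housekeeping mean was higher on KO-labelled arrays. It encodes a small GPI-anchored surface protein of the LY6 family, found on endothelial cells and leukocytes and used to separate a fibro-inflammatory fraction of fat progenitors. It read 12.01, 12.78 and 11.72 on KO-labelled arrays, against 10.57, 10.38 and 10.57 on WT-labelled arrays. It averaged 12.17 ± 0.55 on KO-labelled arrays and 10.51 ± 0.11 on WT-labelled arrays. The lowest KO-labelled array exceeded the highest WT-labelled array, and KO replicate 2 was the highest of all. The rise of 1.66 ± 0.28 passed limma's test (95% interval 0.98 to 2.34, adjusted p = 0.0354) and lay at percentile 98.4 of all probe sets. It was 2.05 ± 0.27 after quantile normalization (adjusted p = 0.0350), 1.99 ± 0.33 after centring on array medians (adjusted p = 0.0264) and 0.60 ± 0.31 after centring on the housekeeping genes (adjusted p = 0.0800). Without KO replicate 1 or KO replicate 2 it passed, and without KO replicate 3 or any WT-labelled array it did not. Without each array in turn the difference lay between 1.36 and 1.89 and the adjusted p between 0.0171 and 0.114.

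Other genes of the LY6 family were divided. Of 9 measured relatives 3 rose and 1 fell, and the median difference was -0.25. Ly6c2, the closest relative of Ly6c1 and the form known from inflammatory monocytes, read 12.21, 12.96 and 12.26 on KO-labelled arrays, against 9.85, 9.60 and 9.69 on WT-labelled arrays. It rose by 2.76 ± 0.23 (limma adjusted p = 0.0346). Ly6c1 and Ly6c2 are near-identical genes whose probes could read each other's RNA, so their separate values are uncertain. Ly6e, a widely expressed member, rose by 1.11 ± 0.11 (adjusted p = 0.0354), and Gpihbp1, which holds lipoprotein lipase on capillary endothelium, rose by 1.89 ± 0.34 (adjusted p = 0.0356). Ly6e stood at 0.05 when arrays were centred on the housekeeping genes. Ly6g, the neutrophil member, named here after its value was seen, fell by 0.79 ± 0.20 (adjusted p = 0.0448). The other 5 relatives differed by -0.73 to -0.23 and none passed.

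**Figure D3:**
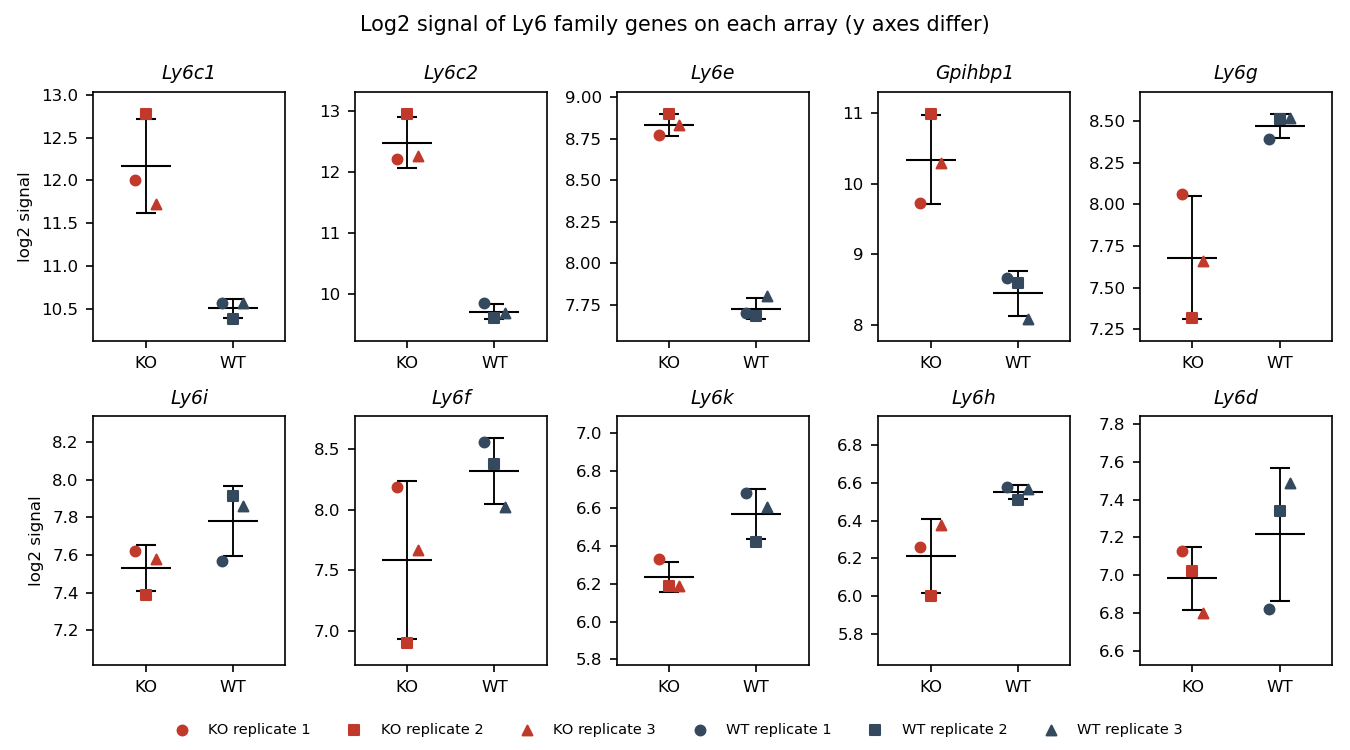
Log2 signal (y axis, a different range in each panel) of Ly6c1 and its 9 measured relatives on the KO-labelled and WT-labelled arrays (x axis). Points are arrays, with a marker shape for each replicate number, and bars are the mean ± SD. Ly6c1, Ly6c2, Ly6e and Gpihbp1 lie higher on every KO-labelled array than on any WT-labelled array, and Ly6g, Ly6k and Ly6h lie lower.

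Since LY6C1 is also a surface protein of blood vessels, the endothelial markers stand beside it. Of 12 measured endothelial markers 10 rose and 0 fell, with a median difference of 1.68. Their summed linear signal was 6833 to 12150 on KO-labelled arrays and 1775 to 2192 on WT-labelled arrays. Cdh5, the gene of vascular endothelial cadherin, rose by 4.06 ± 0.28, Kdr, a VEGF receptor gene, by 2.48 ± 0.21, and Pecam1, the gene of a junction protein, by 2.38 ± 0.28 (limma adjusted p = 0.0346, 0.0346 and 0.0354). Their part in the difference of Ly6c1 was not tested. The leukocyte list, the other source of LY6C proteins, had 2 rises and 2 falls among 9 measured genes and a median difference of -0.03. Its summed linear signals were 2581 to 3291 on KO-labelled arrays and 1578 to 1872 on WT-labelled arrays. The macrophage gene Lyz2 was the brightest of the list on every array, so these sums mostly follow that gene and not the list. Lyz2 read 11.03, 10.46 and 10.61 on KO-labelled arrays, against 9.43, 8.55 and 9.29 on WT-labelled arrays. It rose by 1.61 ± 0.28 (adjusted p = 0.0354) and Fcer1g by 0.87 ± 0.21 (adjusted p = 0.0410), while the B cell gene Cd79a fell by 0.52 ± 0.12 (adjusted p = 0.0404). The other faller was the myeloid gene Itgam, at -0.44 ± 0.12 (adjusted p = 0.049). The macrophage genes Adgre1, Cd68 and Csf1r stood at -0.03, -0.01 and 0.13 without passing. Itgam and these macrophage genes are named after their values were seen.

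The pattern of Ly6c1 over the 6 arrays was compared with that of 30694 other genes, by the root mean square distance between deviations from each gene's own mean. Ly6c1 was chosen for this after its values were seen, because Pdgfra could not be used. The nearest were Man2a1, a Golgi mannosidase gene, at a distance of 0.08 on the log2 scale, Acat1, a mitochondrial thiolase gene, at 0.09, and Zfp36l1, which encodes an RNA-binding protein, at 0.09. Man2a1 read 8.70, 9.57 and 8.61 on KO-labelled arrays, against 7.51, 7.29 and 7.39 on WT-labelled arrays. In all 3, as in Ly6c1, KO replicate 2 was the highest array, a likeness that follows from choosing them by their pattern.

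Among genes read by adipose stroma in general, calls were higher and none lower. Of 18 measured genes 4 rose and 0 fell, with a median difference of 0.35, beside -0.26 for the 8 members, and the difference between the lists was not tested. Dcn, which encodes the collagen-binding proteoglycan decorin, read 11.88, 12.92 and 11.62 on KO-labelled arrays, against 9.32, 9.62 and 10.51 on WT-labelled arrays. It rose by 2.32 ± 0.44 (limma adjusted p = 0.0359). Eng, the endoglin gene, rose by 1.5 ± 0.23 (adjusted p = 0.0354), and it counts among the endothelial markers too. Gsn, the gene of the actin-severing protein gelsolin, was the fourth with Itgb1, at 2.58 ± 0.58 (adjusted p = 0.0392), and is named after its value was seen. The median of these stromal genes turned to -0.71 when arrays were centred on the housekeeping genes. As deposited, 15 of the 18 differences were positive and 3 negative. The negative ones were Thy1, Prrx1 and Tcf21, at -0.40, -0.16 and -0.15, and none passed. The collagen genes Col1a1, Col1a2 and Col3a1 stood at 0.19, 0.16 and 0.32, also without passing. Each passed limma's test as higher after centring on array medians (adjusted p = 0.0495, 0.0462 and 0.0321). After quantile normalization Col3a1 alone of them passed (adjusted p = 0.0375). When arrays were centred on the housekeeping genes each passed as lower, at -0.87, -0.90 and -0.74 (adjusted p = 0.0195, 0.0193 and 0.0403). Thy1, Prrx1, Tcf21 and the collagen genes are named after their values were seen.

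Of 7 measured genes linked to committed preadipocytes 1 rose and 0 fell. Sparcl1, which encodes a matrix glycoprotein also made by vessels, rose by 3.67 ± 0.46 (limma adjusted p = 0.0354). Cxcl12, a chemokine gene, and Vcam1, an adhesion molecule gene, differed by 0.44 ± 0.13 and 0.53 ± 0.19 without passing (adjusted p = 0.0573 and 0.0792), and turned to -0.62 and -0.53 when arrays were centred on the housekeeping genes.

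For Pdgfra itself, not measured here, 5 other PDGF genes were read, of which 1 rose and 0 fell. Pdgfb, the ligand gene of vessel lining, rose by 0.81 ± 0.15 (limma adjusted p = 0.0356). Pdgfrb, the receptor of mural cells, differed by 0.49 ± 0.17 and Pdgfc by -0.25 ± 0.12 without passing (adjusted p = 0.0717 and 0.138). Pdgfb and Pdgfrb turned to -0.25 and -0.57 when arrays were centred on the housekeeping genes, and Pdgfc to 0.07 and 0.08 after quantile normalization and median centring. Of 6 relatives of Dpp4 1 rose and 0 fell, namely Dpp8, the gene of a cytosolic dipeptidyl peptidase, at 1.11 ± 0.21 (adjusted p = 0.0356). Dpp6 and Dpp10, which encode potassium channel partners without protease activity, stood at -0.36 ± 0.13 and -0.40 ± 0.17 (adjusted p = 0.0870 and 0.110).

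In the Wnt pathway, which SFRP2 modulates, 3 of 13 measured genes rose and 0 fell, with a median difference of -0.19. All 3 encode receptors. Fzd4 rose by 2.35 ± 0.50, Lrp6 by 1.43 ± 0.32 and Lrp5 by 0.95 ± 0.14 (limma adjusted p = 0.0380, 0.0391 and 0.0354), of which Lrp5 turned to -0.11 when arrays were centred on the housekeeping genes. As deposited, 9 of the 13 differences were negative and 4 positive. The Sfrp2 relatives Sfrp1, Sfrp4, Sfrp5 and Frzb stood at -0.77, -0.43, -0.19 and -0.39 without passing. After quantile normalization they were at -0.45, -0.09, 0.14 and -0.03. These relatives are named after their values were seen. In the Notch pathway, which DLK1 can dampen, 2 of 12 measured genes rose and 0 fell, with a median difference of 0.08. The receptor gene Notch1 rose by 0.58 ± 0.16 and the ligand gene Jag1 by 0.70 ± 0.18 (adjusted p = 0.0487 and 0.0448), and Adam17, the gene of the protease that sheds DLK1, differed by 0.38 ± 0.11 (adjusted p = 0.0515). These 3 turned to -0.48, -0.36 and -0.68 when arrays were centred on the housekeeping genes.

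**Figure D4:**
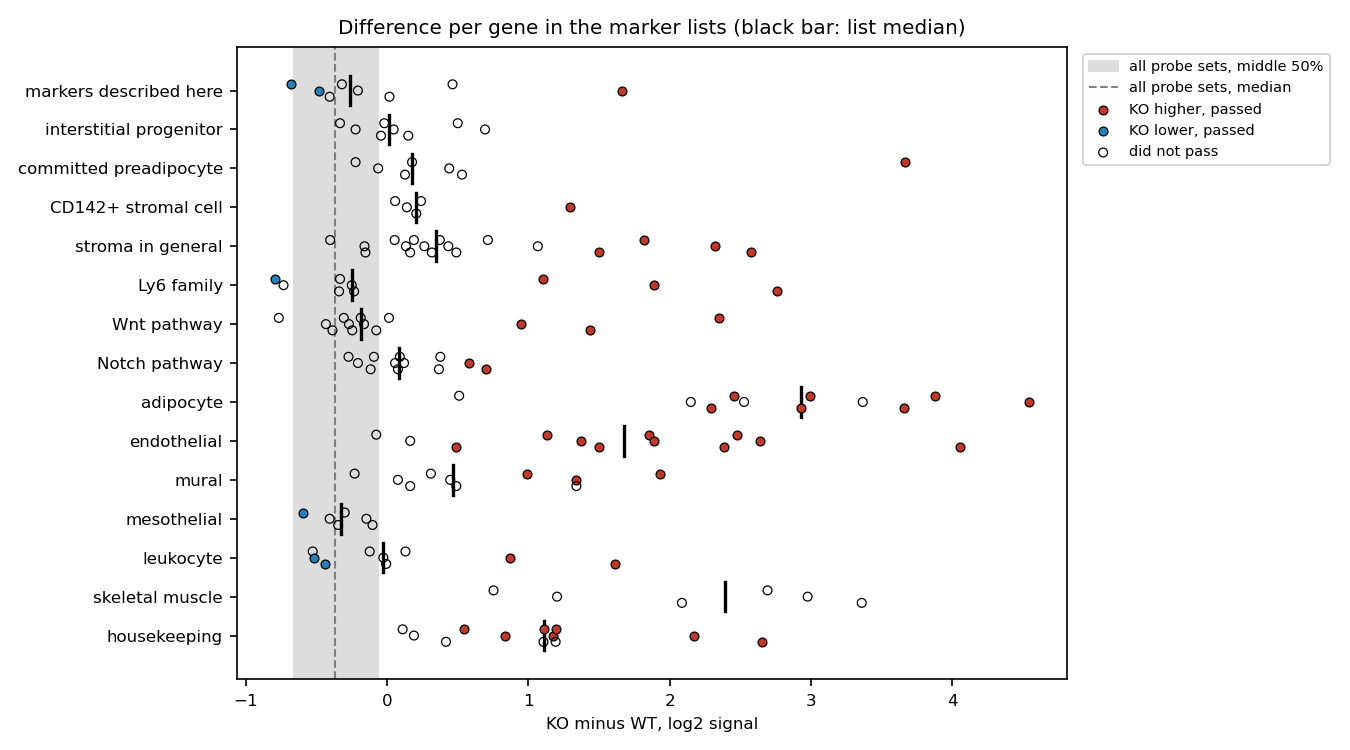
Difference between KO-labelled and WT-labelled arrays (x axis, log2 signal as deposited) of each measured gene in 15 lists (y axis). Filled points passed limma's test, black bars are list medians, the dashed line is the median of all probe sets (-0.37) and the grey band holds their middle 50%, from -0.66 to -0.06. The markers described here centre on -0.26, the endothelial list on 1.68 and the adipocyte list on 2.93.

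Markers of the other cells of the depot moved beside the members. Of 11 measured adipocyte markers 7 rose and 0 fell, with a median difference of 2.93, and Pparg, Plin1 and Cidec rose by 3.66, 2.29 and 2.45 (limma adjusted p = 0.0354 each). Their summed linear signal was 564800 to 1094000 on KO-labelled arrays and 27990 to 305200 on WT-labelled arrays. Fabp4 was the brightest of them on every array, so these sums mostly follow that gene. It read 18.78, 19.57 and 18.78 on KO-labelled arrays, against 17.14, 17.96 and 14.45 on WT-labelled arrays, and is named after its values were seen. Whether each of the other markers lay above background was not examined. Of 10 mural cell markers 3 rose and 0 fell, with Rgs5 at 1.93 ± 0.28, Acta2 at 1.34 ± 0.36 and Abcc9 at 0.99 ± 0.23 (adjusted p = 0.0354, 0.0486 and 0.0402), and Abcc9 turned to -0.07 when arrays were centred on the housekeeping genes. Of 6 mesothelial markers 0 rose and 1 fell, with Upk1b at -0.60 ± 0.16, Upk3b at -0.41 ± 0.12 and Msln at -0.35 ± 0.12 (adjusted p = 0.0482, 0.0527 and 0.0772), and Msln turned to 0.01 after quantile normalization. Of 6 skeletal muscle markers 0 passed, 0 of them also at an unadjusted p under 0.05, with differences of 0.75 to 3.36. Their summed linear signal was 822.7 to 28170 on KO-labelled arrays and 794.3 to 899.3 on WT-labelled arrays. In each of the 6, KO replicate 2 was the highest KO-labelled array and KO replicate 3 the lowest. Atp2a1 read 11.2, 13.39 and 7.12 on KO-labelled arrays, against 7.19, 7.08 and 7.36 on WT-labelled arrays. Muscle signal was thus uneven among the KO-labelled arrays. The part of these cell types in the differences of the members was not tested.

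The spread among KO-labelled arrays was larger than among WT-labelled arrays in 7 of 8 members, Sfrp2 being the exception. KO replicate 2 was the lowest KO-labelled array in 5 members, the highest in Ly6c1 and F3, and the middle array in Clec11a. Without KO replicate 2 the difference was 1.36 for Ly6c1 (limma adjusted p = 0.0171), -0.63 for Clec11a (adjusted p = 0.0590), -0.44 for Sfrp2 (adjusted p = 0.0523) and 0.36 for F3 (adjusted p = 0.0836). Without it 1 of 8 members was called higher and 0 lower, where 4.62% and 10.5% of all probe sets were.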

How the data were processed

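The authors deposited log2 signals, 1 value per probe set and array, for 3 KO-labelled and 3 WT-labelled arrays. Per the labels, the GeneChip WT Pico kit was used to make biotin-labelled targets. Per the submitters' processing notes, Transcriptome Analysis Console was used, and its background correction, normalization and summary steps are not stated in the sources at hand. The lowest value was 2.81 and the ceiling 19.93, and array medians differed, so the deposited values did not share 1 distribution across arrays. No detection calls or scan dates were used, so presence above background and batches were not examined, and the number of arrays limits the precision.

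GEO's array annotation, with symbols updated through RefSeq GRCm38.p6, gave 31258 probe sets 1 gene symbol, 1492 several and 33206 none. Probe sets without a single symbol stayed unnamed. All 65956 probe sets were compared by limma 3.58.1 in R 4.3.3 (lmFit and eBayes without trend, genotype as the sole term, Benjamini-Hochberg over all probe sets). The procedure was tested on simulated arrays. Tables and plots used Python 3.11.15, pandas 2.3.3 and matplotlib 3.10.9.

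The members and lists were chosen with earlier results of these data known. Genes named are the 8 measured members, Tfg and, of each other list, the 3 with the smallest p, with added genes marked. The rule also picked the housekeeping genes Actb, Rplp0 and Ywhaz and the muscle gene Acta1, whose single values are not given. The rule also asked for the genes nearest to Pdgfra, which could not be had. Alternatives were other scalings, variance settings, weighting of arrays, a block for the replicate number, filters on dim probe sets (mean under 6.21 or 6.83), single-symbol probe sets, averaging the probe sets of a gene, other thresholds, and leaving out each array. Deviations from group means correlated at 0.002, 0.205 and 0.139 between KO and WT arrays of the same replicate number. Arrays of different number were not compared, so these values cannot tell whether the number pairs the arrays.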

Additional observations from a re-analysis of the deposited data

How the results depend on the processing

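The members' calls depended on the scale and on single arrays, and the causes were not tested. Members called higher numbered 1 as deposited. They numbered 2 (Ly6c1 and F3) after quantile normalization, after centring on array medians, with array weights, without probe sets of mean signal under 6.83, with single-symbol probe sets, with the probe sets of each gene averaged and at an adjusted p under 0.1. They numbered 0 after centring on the housekeeping genes and at an adjusted p under 0.01, and 0 to 1 without each array. Members called lower numbered 2 as deposited, 0 after quantile normalization and after centring on array medians, 3 with array weights (Dpp4 added, adjusted p = 0.0466), 1 with the replicate block (Clec11a, while Sfrp2 had an adjusted p of 0.0606), 1 without probe sets under 6.21 (where Sfrp2 was not tested) and 0 without those under 6.83, which left 3 members. They numbered 6 after centring on the housekeeping genes, where 89.5% of all probe sets were lower, 4 at an adjusted p under 0.1, 0 under 0.01, and 0 to 1 without each array. The replicate block changed no other member's call. The members' median of -0.26 turned to 0.10 after quantile normalization, 0.067 after centring on array medians and 0.46 without probe sets under 6.83, was -1.32 after centring on the housekeeping genes, and lay between -0.30 and -0.20 without each array.

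Over all probe sets limma called 3509 higher and 10282 lower. It called 901 and 59060 after centring on the housekeeping genes, and 5902 and 24774 at an adjusted p under 0.1, and 0 and 0 under 0.01. It called 2212 lower after quantile normalization, 3259 after centring on array medians, 17432 with array weights and 6773 of the single-symbol probe sets. Of the calls, those higher made up 25.4% as deposited, 64.6% after quantile normalization, 61.2% after centring on array medians and 1.5% after centring on the housekeeping genes. Without each array limma called 0 to 3469 higher and 0 to 10697 lower. Both counts were 0 without KO replicate 3, WT replicate 1, WT replicate 2 or WT replicate 3, with 28697, 23757, 25102 and 21579 probe sets at an unadjusted p under 0.05. The smallest adjusted p as deposited was 0.0305.

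Single genes named by the rule turned sign as follows. After quantile normalization Pi16 was at 0.041, Dlk1 at 0.16, Bmp7 at 0.023, Pdgfc at 0.067, Podxl at 0.24, Itga11 at 0.13, Itga10 at 0.064, F10 at 0.016 and Msln at 0.01. After centring on array medians Pi16 was at 0.01, Dlk1 at 0.12, Pdgfc at 0.077, Podxl at 0.32, Itga11 at 0.10, Itga10 at 0.043 and F10 at 0.03. After centring on the housekeeping genes the differences were -1.04 in Cd34, -0.60 in F3, -0.92 in Tfg, -0.56 in Anxa3, -0.37 in Cd55, -0.62 in Cxcl12, -0.53 in Vcam1, -0.82 in Abcg1, -0.85 in Gdf10, -0.25 in Pdgfb, -0.57 in Pdgfrb, -0.11 in Lrp5, -0.36 in Jag1, -0.48 in Notch1, -0.68 in Adam17, -0.069 in Abcc9, -0.19 in Fcer1g and -0.31 in Mylpf. Without each array Cd34 lay between -0.057 and 0.10 and Podxl between -0.08 and 0.04.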
